A study of Mus musculus with 64 samples.

Results

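The genes described here are 9 genes of the circadian clock and its output, Per1, Per2, Per3, Ciart, Nr1d1, Nr1d2, Dbp, Tef and Arntl, together with Cirbp, which codes for the cold-inducible RNA-binding protein. They were taken from the table of expression values by gene symbol, and all 10 were present among its 18432 genes. They were chosen by name with earlier results of the same libraries known, and were selected on a measured value, namely how far the cortex and the hippocampus of a mouse agreed. The agreement is therefore given as a description without a test, and the adjusted p-values below describe each comparison without being independent support.

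RNA was sequenced from the cortex and the hippocampus of C57BL/6N littermates at postnatal week (PWK) 1, 7, 14 and 28. Mice were wild-type (WT) or heterozygous for the Cyfip2 R87C knock-in (Cyfip2 +/R87C, KI), which changes a residue of a subunit of the actin-regulating WAVE complex in every cell that expresses Cyfip2. The labels give no sex, but the Y-linked gene Ddx3y read at least 826 in every library. The study's methods name both sexes for its experiments, without giving the sex of these mice. Each of the 16 combinations of region, age and genotype held 4 libraries from 4 mice. Libraries of the cortex and the hippocampus with the same age, genotype and replicate number were taken as the 2 regions of a single mouse, which gives 32 mice. Mice were kept under 12 h of light from 8 am to 8 pm, and brains were collected between 2 and 4 pm, in the light phase. The hour at which each mouse was taken within that window is not given in the sources used here. Every age is a separate set of mice, so age and the day on which a set was collected cannot be told apart.

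The mammalian clock is a feedback loop of transcription. ARNTL (also called BMAL1) pairs with CLOCK on E-box sequences and drives the Per and Cry genes, whose proteins then repress that pair. The same pair drives Nr1d1 and Nr1d2, which code for the nuclear receptors REV-ERB alpha and beta that repress Arntl, and Dbp and Tef, which code for transcription factors that bind D-box sequences. Ciart codes for a further repressor of CLOCK and ARNTL. Transcripts of Dbp, Nr1d1, Per1, Per2 and Per3 swing over the day in most tissues, and Arntl swings in the opposite phase. Per1 is also an immediate early gene that neuronal activity induces. Cirbp rises when tissue cools and falls when it warms, and its protein binds clock transcripts.

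The values are counts that the authors normalized with DESeq2, so a difference between libraries in depth is already divided out. Their totals per library ranged from 29225576 to 32601227. The lowest value of any of the 10 genes in any of the 64 libraries was 82.5, for Ciart, and none was listed at 0. All 10 passed the filter on low values (a mean of at least 1 over the libraries compared) in every comparison. Log2 expression correlated at 0.907 or more between any 2 libraries. Cyfip2 itself was read in every library, and the table does not tell the mutant allele from the normal one. The markers of the suprachiasmatic nucleus and hypothalamus Avp, Six6, Oxt and Hcrt had no row in the table.

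In the GENCODE M21 annotation of GRCm38 all 10 are protein-coding genes. Per1 lies at chr11:69095217-69109960, Per2 at chr1:91415982-91459324, Per3 at chr4:151003652-151044665, Ciart at chr3:95878503-95882251, Nr1d1 at chr11:98767932-98775333, Nr1d2 at chr14:18204054-18239127, Dbp at chr7:45705088-45710203, Tef at chr15:81802421-81826863, Arntl at chr7:113207465-113314126 and Cirbp at chr10:80165985-80172786. Per3 overlaps Camta1 on the same strand. Nr1d1 overlaps Thra, Dbp overlaps Sphk2, and Tef, Arntl and Ciart overlap antisense genes, all on the opposite strand. The library kit keeps the strand, but reads in the overlaps could still be split between neighbours, most of all for Per3.

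Promoter sequence from RefSeq (GRCm38.p6), running from 250 bases before to 50 bases after the start site, was at hand for 9 of the 10 genes in 13 windows. It was searched on both strands for the elements through which the loop is wired. The E-box CACGTG, bound by CLOCK and ARNTL, was found in 4 of the 13 windows, against 7.15% of all 32851 windows of this length. They belong to Ciart, Per1 and Tef, and Ciart held 3 copies. The D-box TTATGTAA, bound by DBP and TEF, was found only in the window of Per3, which held 2 copies, against 1.056% of all windows. The element bound by REV-ERB and ROR receptors (RORE) was found in a window of Arntl, against 0.384% of all windows. The mild-cold response element TCCCCGCC was found in a window of Cirbp and, on the other strand, in both windows of Arntl, against 5.382% of all windows. Stretches of 30 bases around matches in each of these genes follow, 5′ to 3′ on the strand of the gene, with the element in capitals. The E-box in the other window of Tef and the mild-cold elements of Arntl are not shown.
Ciart, chr3:95882327-95882356, minus strand: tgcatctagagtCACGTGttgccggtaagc
Ciart, chr3:95882269-95882298, minus strand: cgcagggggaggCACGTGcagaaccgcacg
Ciart, chr3:95882255-95882284, minus strand: cgtgcagaaccgCACGTGtctgggaggggg
Per1, chr11:69098771-69098800, plus strand: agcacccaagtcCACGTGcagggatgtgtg
Tef, chr15:81802534-81802563, plus strand: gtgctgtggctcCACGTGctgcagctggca
Per3, chr4:151044852-151044881, minus strand: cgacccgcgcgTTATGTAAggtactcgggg
Per3, chr4:151044805-151044834, minus strand: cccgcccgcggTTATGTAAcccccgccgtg
Arntl, chr7:113207528-113207557, plus strand: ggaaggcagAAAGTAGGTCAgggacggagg
Cirbp, chr10:80167589-80167618, plus strand: ctgTCCCCGCCtcctagtcgctagcgggcg
The 3 E-boxes of Ciart begin at positions -116, -58 and -44 from the start site, that of Per1 at -166 and the D-boxes of Per3 at -205 and -158. A match says only that these letters are there, and the absence of one from the windows of Dbp, Nr1d1 and Nr1d2 says nothing of sites outside them.

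The levels in WT mice set the scale for the genotype comparison. Between PWK 1 and PWK 7 all 10 genes changed in both regions, in a background where 65.3% of all genes tested in cortex and 61.3% in hippocampus were called by limma at an adjusted p under 0.05. 9 genes rose and Arntl fell. Dbp rose most in the cortex, from 520.5 ± 66.9 to 3115 ± 55.9 (mean ± SD, n = 4 mice), a log2 difference of 2.59 ± 0.08 (SE). Ciart rose from 128 ± 18.4 to 774 ± 57.7, also by 2.59 on the log2 scale. In the hippocampus Dbp rose from 508 ± 54.7 to 2338 ± 219 and Ciart from 114 ± 21.1 to 449 ± 43.9. Per3, Tef, Nr1d1, Per2 and Nr1d2 rose by between 1.06 and 1.88 on the log2 scale over both regions. Per1 rose by 0.71 in cortex and 0.45 in hippocampus, and Cirbp by 0.19 and 0.16. Arntl, the positive arm of the loop, fell from 1009 ± 43.2 to 782 ± 43.7 in cortex and from 945 ± 24.1 to 849 ± 59.6 in hippocampus.

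After PWK 7 the genes parted. Dbp fell further at each age in WT cortex, to 2095 ± 73.5 at PWK 14 and 1761 ± 139 at PWK 28, and both steps passed the test. Ciart fell to 400.2 ± 52.0 at PWK 14 and stood at 509.5 ± 66.9 at PWK 28, where the later step did not pass (adjusted p = 0.0666). Arntl rose again in cortex, to 1136 ± 48.1 at PWK 14, and Per2 rose from 1520.0 ± 181 to 2319 ± 211. Between PWK 7 and PWK 14, 7 of the 10 genes changed in cortex (5.32% of all genes) and 4 in hippocampus (1.99%). Those 4, Dbp, Nr1d1, Ciart and Cirbp, fell in both regions, Cirbp by 0.36 in cortex and 0.40 in hippocampus. Between PWK 14 and PWK 28, 4 genes changed in cortex (12% of all genes) and 3 in hippocampus (8.11%). Per1 rose in both regions, from 2999 ± 97.9 to 3729 ± 100.3 in cortex and from 2128 ± 141 to 2667 ± 98.3 in hippocampus. These later steps moved with the processing. With all 64 libraries in a common fit the counts for PWK 14 against PWK 7 were 4 in cortex and 2 in hippocampus, and those for PWK 28 against PWK 14 were 0 in both. With the replicate number as a block, which joins unrelated mice across ages, the last were 1 and 1. Without WT cortex mouse 1 of either age 2 of the 4 calls in cortex were left, and without WT hippocampus mouse 1 or 2 of PWK 14, or any WT hippocampus mouse of PWK 28, 1 of the 3 in hippocampus.

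The hippocampus of WT mice held less of most of these transcripts than the cortex from PWK 7 on. At PWK 7, 7 genes were lower in hippocampus and none was higher (40.8% of all genes called), at PWK 14 9 were lower (34.6%), and at PWK 28 7 were lower (37.8%). Ciart differed most at each of these ages, by -0.78 at PWK 7 and by -0.68 at PWK 14 and at PWK 28. At PWK 1 only 4 genes differed (34.7%), Per2 and Tef being higher in hippocampus and Nr1d1 and Nr1d2 lower. Cirbp did not differ between regions at any age, with log2 differences between -0.10 and -0.01 that did not pass the test. Within the spread of 4 mice, neither did Per3 nor Tef at PWK 28 (log2 differences of -0.05 and 0.03).

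**Figure D1:**
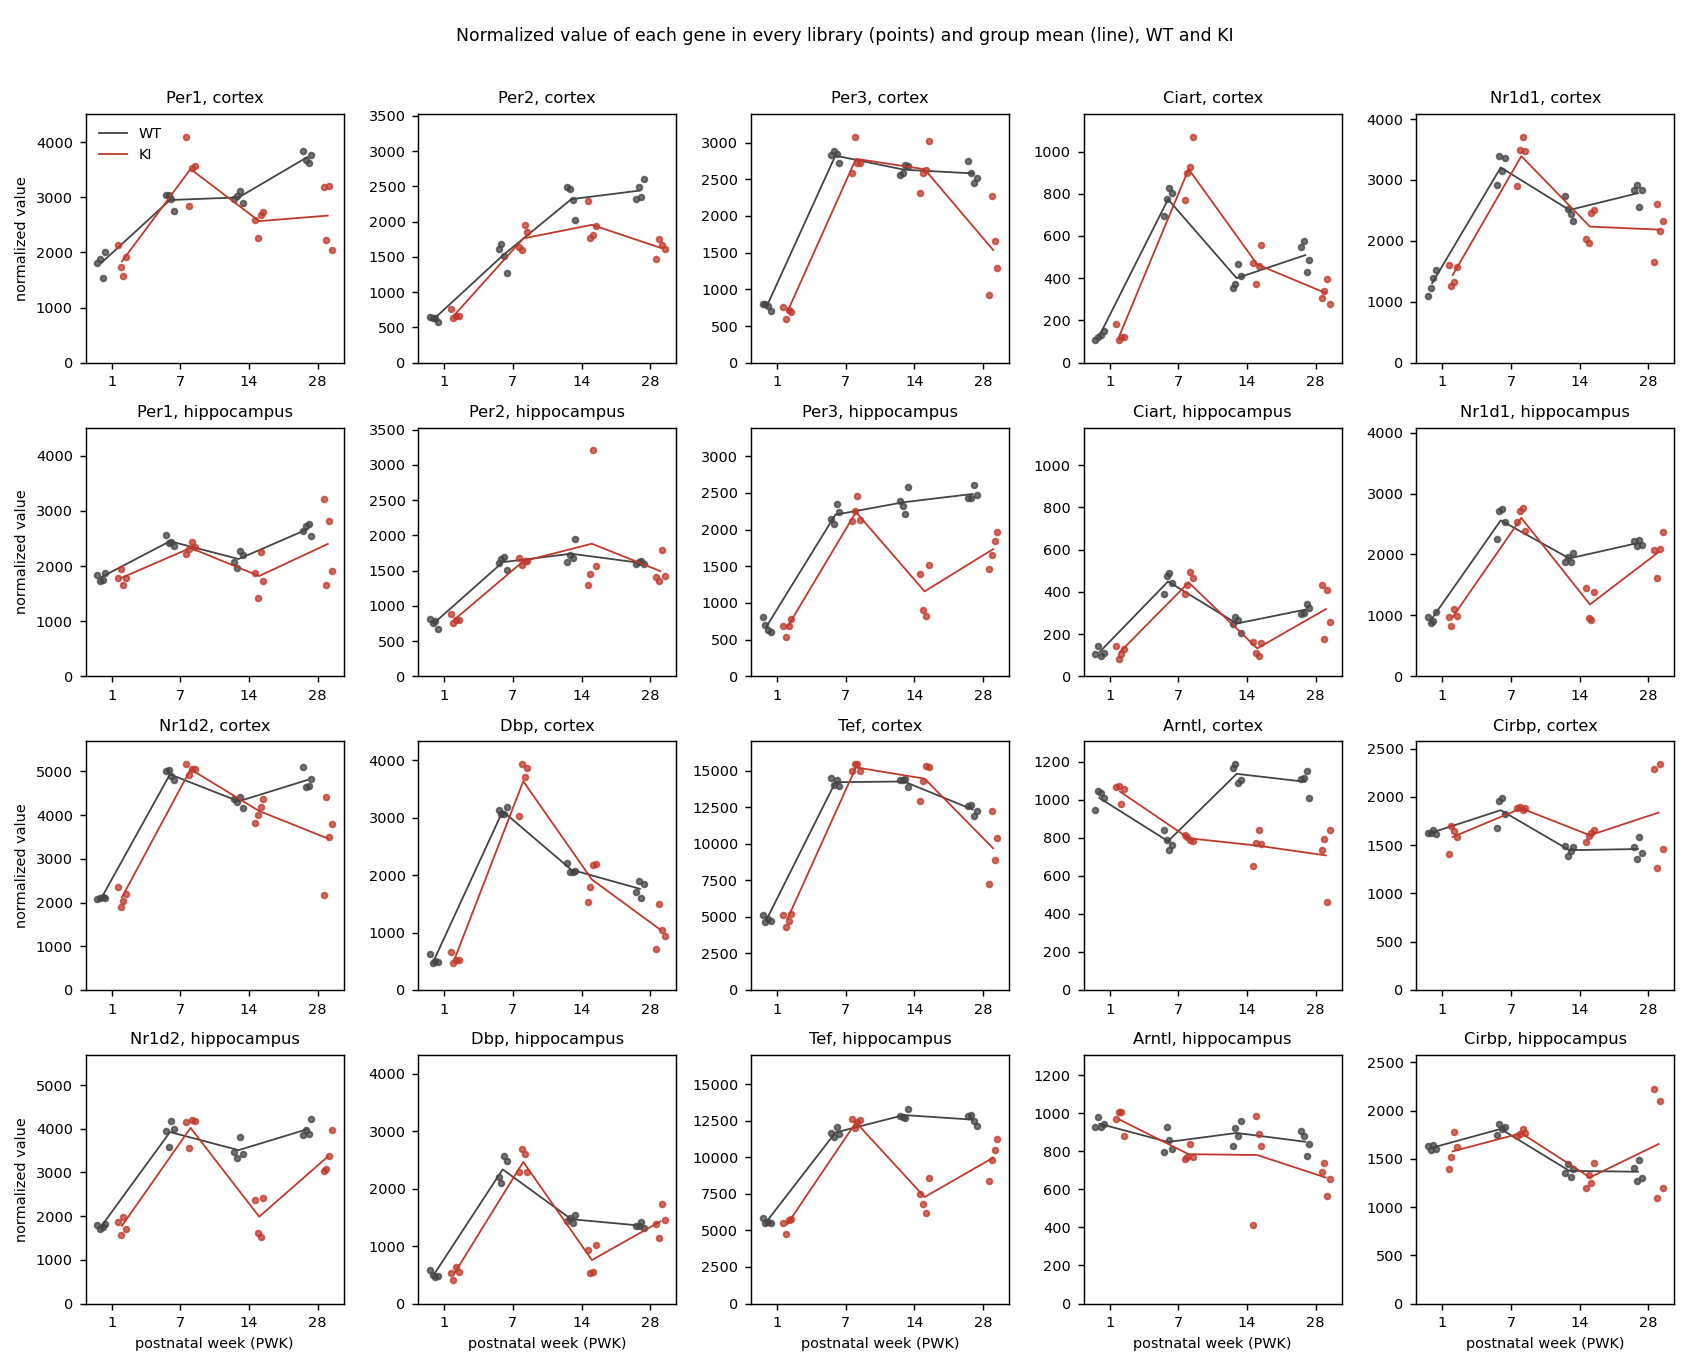
Normalized value (y axis, from 0) of the 10 genes in every library against age in postnatal weeks (x axis, categories), for cortex and hippocampus. Points are libraries, lines join the means of 4, and grey is WT and red is KI. Most genes rose between PWK 1 and PWK 7 in both genotypes, and the KI points spread apart at PWK 14 and PWK 28.

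The main question was how the knock-in changed these genes as the mice aged. At PWK 1 none of the 10 was called between KI and WT, where 0.00546% of all genes were called in cortex and 0.0109% in hippocampus. At PWK 7 none was called either, where 0.00545% were called in cortex and 0.0218% in hippocampus. At PWK 14, 6 were lower in KI hippocampus and only Arntl was lower in KI cortex. At PWK 28, 7 were lower in KI cortex and 4 in KI hippocampus. No gene of the 10 was called higher in KI at any age, and Cirbp was not called in any comparison. In whole tissue, less RNA per cell and fewer cells that express a gene cannot be told apart.

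At PWK 1 no difference passed an unadjusted p under 0.05 in either region, where 5.27% of all genes did in cortex and 5.46% in hippocampus, and the largest estimate was -0.15 ± 0.08 for Per3 in cortex. At PWK 7 in cortex 5 of the 10 genes had an unadjusted p under 0.05 (8.05% of all genes did), all with a higher mean in KI, and none held after adjustment. They were Per1, Per2, Dbp, Tef and Ciart, with log2 differences of 0.24, 0.22, 0.22, 0.10 and 0.24 and adjusted p-values of limma between 0.421 and 0.554. Tef alone did not overlap between groups, which was so for 4.62% of all genes, at 14988, 15447, 15436 and 14994 in KI and 14497, 13997, 14357 and 13952 in WT. In hippocampus at PWK 7 none of the 10 reached an unadjusted p under 0.05, where 6.22% of all genes did.

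In the hippocampus at PWK 14, 6 of the 10 genes were lower in KI at an adjusted p under 0.05 in limma, where 15.6% of all genes tested were called and 7.95% were called lower. The 6 were Per3, Ciart, Nr1d1, Nr1d2, Dbp and Tef, and for each of them all 4 KI mice lay below all 4 WT mice, which was so, in either direction, for 23.8% of all genes. Per3, a period gene and weak repressor, read 1388, 904, 828 and 1512 in KI mice 1 to 4 and 2384, 2326, 2209.6 and 2574 in WT. Its log2 difference was -1.08 ± 0.18 (SE, adjusted p = 0.00523). Dbp read 926, 528, 553 and 1023 in KI against 1436, 1497, 1409.8 and 1535 in WT, a difference of -1.02 ± 0.20 (adjusted p = 0.011). KI mice 2 and 3 were the lowest for both.

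The D-box factor Tef, the most abundant of these values, read 7506, 6810, 6209 and 8597 in KI hippocampus and 12820, 12773, 12681 and 13269 in WT. Its log2 difference was -0.83 ± 0.09 (adjusted p = 0.0011). Nr1d1, the gene of REV-ERB alpha, read 1453, 950, 931 and 1385 in KI and 1880, 1961, 1871 and 2031 in WT, a difference of -0.74 ± 0.15 (adjusted p = 0.01). Nr1d2, the gene of REV-ERB beta, read 2380, 1621, 1530 and 2416 against 3467, 3330, 3819 and 3423, a difference of -0.85 ± 0.15 (adjusted p = 0.00641). Again mice 2 and 3 were the lowest. Ciart read 163, 111, 97.4 and 158 in KI and 247, 281, 265 and 207 in WT, a difference of -0.94 ± 0.19 (adjusted p = 0.0121). These 6 calls held in all 15 alternative settings that were run, leave-out fits included.

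The other 4 genes were not called in KI hippocampus at PWK 14. Per1 differed by -0.24 ± 0.12 and Cirbp by -0.08 ± 0.07, and their groups overlapped. Per2 read 1301, 1449 and 1569 in KI mice 1, 2 and 4 but 3204 in KI mouse 3, above every other library of the series for this gene. Its log2 difference was 0.02 with all mice and -0.27 without that mouse (adjusted p = 0.0824). Arntl read 415 in KI mouse 1 and 988, 893 and 827 in the others, against 827 to 957 in WT, and differed by -0.27 ± 0.23.

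In the cortex at PWK 14 Arntl was the only call of the 10, where 5.18% of all genes were called. It read 650.4, 774, 842 and 768 in KI and 1166, 1188, 1089 and 1101 in WT, so the groups did not overlap, as for 14.2% of all genes, and it fell by 0.59 ± 0.08 (adjusted p = 0.00382). The 6 genes called in hippocampus overlapped between groups here and were not called. Ciart differed by 0.21 ± 0.13, Nr1d1 by -0.17 ± 0.09, Dbp by -0.14 ± 0.11, Nr1d2 by -0.08 ± 0.05, Tef by 0.02 ± 0.06 and Per3 by -0.00 ± 0.08. Per1 was lower in all 4 KI mice, at 2259 to 2743 against 2891 to 3122, without passing the test (adjusted p = 0.0783). Cirbp was higher in all 4, at 1534 to 1655 against 1386 to 1489, without passing (adjusted p = 0.153). Per2 gained a call without KI mouse 1 or with library weights.

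The difference between regions at PWK 14 was tested with an interaction term, in a fit that treated the libraries as independent, without a term for the mouse. It was called for 4 of the 10 genes, where 2.85% of all genes were called, and each was lower in KI in hippocampus than in cortex. The log2 difference of differences was -1.15 ± 0.24 for Ciart (adjusted p = 0.0173), -1.08 ± 0.21 for Per3 (adjusted p = 0.0139), -0.85 ± 0.11 for Tef (adjusted p = 0.00112) and -0.77 ± 0.17 for Nr1d2 (adjusted p = 0.0222). Dbp at -0.88 ± 0.25 (adjusted p = 0.066) and Nr1d1 at -0.57 ± 0.18 (adjusted p = 0.102) did not pass. Without the hippocampal library of KI mouse 1 the number called rose to 7, with the share of all genes in that fit not given here.

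In the cortex at PWK 28 lower values in KI were called for 7 of the 10 genes, where 22.2% of all genes were called and 10% were called lower. They were the 3 period genes, Dbp, Nr1d1, Arntl and Ciart, so repressors, outputs and the positive arm were all among them. The count was 4 without WT mouse 1, and without KI mouse 2 all 10 genes were called, 9 lower and Cirbp higher. The share of all genes called in those fits is not given here, so these counts have no background. Per2 read 1472, 1759.6, 1671 and 1616 in KI mice 1 to 4 and 2320.1, 2490.2, 2353 and 2603 in WT, a log2 difference of -0.58 ± 0.07 (adjusted p = 0.000512). Its SE was the smallest of the 7. Per3 read 924, 2268, 1659 and 1295 against 2755, 2589, 2456 and 2523, a difference of -0.82 ± 0.21 (adjusted p = 0.0201). The highest KI mouse read 2.46 times the lowest here, while the WT mice lay close together. That call was lost without KI mouse 4 or WT mouse 1 (adjusted p up to 0.0564).

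Dbp read 714, 1495, 1037 and 943 in KI cortex and 1699.6, 1900.3, 1596 and 1849.7 in WT at PWK 28, and differed by -0.80 ± 0.18 (adjusted p = 0.0106). Ciart read 305, 339, 396 and 277 against 548, 578, 428 and 484, and differed by -0.63 ± 0.13 (adjusted p = 0.00775). Arntl read 737, 791, 460.1 and 840.2 against 1107, 1114, 1149 and 1006, and differed by -0.66 ± 0.16 (adjusted p = 0.0159). In none of these 3 did the groups overlap, which was so for 25.8% of all genes. Per1 read 3193, 2232, 3206 and 2045 in KI against 3844, 3678, 3619 and 3775 in WT, and differed by -0.51 ± 0.14 (adjusted p = 0.0226). It lost its call without WT mouse 1, 2 or 4 (adjusted p up to 0.0602).

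The remaining 3 genes of the cortex at PWK 28 sat near the threshold or apart from it. Nr1d1 read 1651, 2606, 2160 and 2322 against 2834, 2917, 2548 and 2834, and its difference of -0.37 ± 0.12 only just passed (adjusted p = 0.0493). It lost its call in 8 of 15 alternatives, among them each fit without a WT mouse and without KI mouse 1, 3 or 4. Nr1d2 read 2164, 4404, 3495 and 3799 against 5089.5, 4638, 4667 and 4815, with no overlap, and missed the threshold at -0.52 ± 0.17 (adjusted p = 0.0559). Tef read 7229, 12205, 8894 and 10398 against 12593, 12644, 11871 and 12241, and missed it at -0.38 ± 0.13 (adjusted p = 0.0604). Nr1d2 and Tef gained calls in 5 of 15 alternatives each. Among the KI cortex libraries, mouse 1 was the lowest for Per3, Dbp, Nr1d1, Nr1d2 and Tef, and mouse 2 the highest.

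In the hippocampus at PWK 28 fewer genes were called than at PWK 14. 4 of the 10 were lower in KI, where 15.8% of all genes were called and 6.91% were called lower. Per3 read 1468, 1651, 1849.5 and 1967 in KI and 2433, 2437, 2602 and 2471 in WT, a difference of -0.53 ± 0.08 (adjusted p = 0.00163). Tef read 8365, 9780.0, 10468 and 11267 against 12836, 12858, 12473 and 12123, a difference of -0.34 ± 0.08 (adjusted p = 0.0118). Arntl read 690, 740, 563 and 656 against 906, 883, 776 and 837, a difference of -0.37 ± 0.09 (adjusted p = 0.0177), which was lost without WT mouse 1 or 2 (adjusted p up to 0.0592). Nr1d2 overlapped between groups, at 3033 to 3959 in KI and 3857 to 4232 in WT. Its difference of -0.25 ± 0.08 (adjusted p = 0.0473) was lost in 9 of 15 alternatives, among them each fit without a WT mouse.

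Dbp, Ciart and Nr1d1, which were lower in KI hippocampus at PWK 14, were not called there at PWK 28. Dbp read 1389, 1147, 1738 and 1453 in KI and 1317 to 1420 in WT, a difference of 0.06 with a 95% confidence interval from -0.16 to 0.28. Ciart read 431, 177, 410.1 and 256 in KI and 296 to 342 in WT, so 2 KI mice lay above every WT mouse and 2 below. Nr1d1 differed by -0.12 ± 0.09. Per1 and Per2 differed by -0.20 ± 0.17 and -0.12 ± 0.08, and Per2 was called lower only without KI mouse 3, whose value of 1787 stood above the other 3 KI mice.

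**Figure D2:**
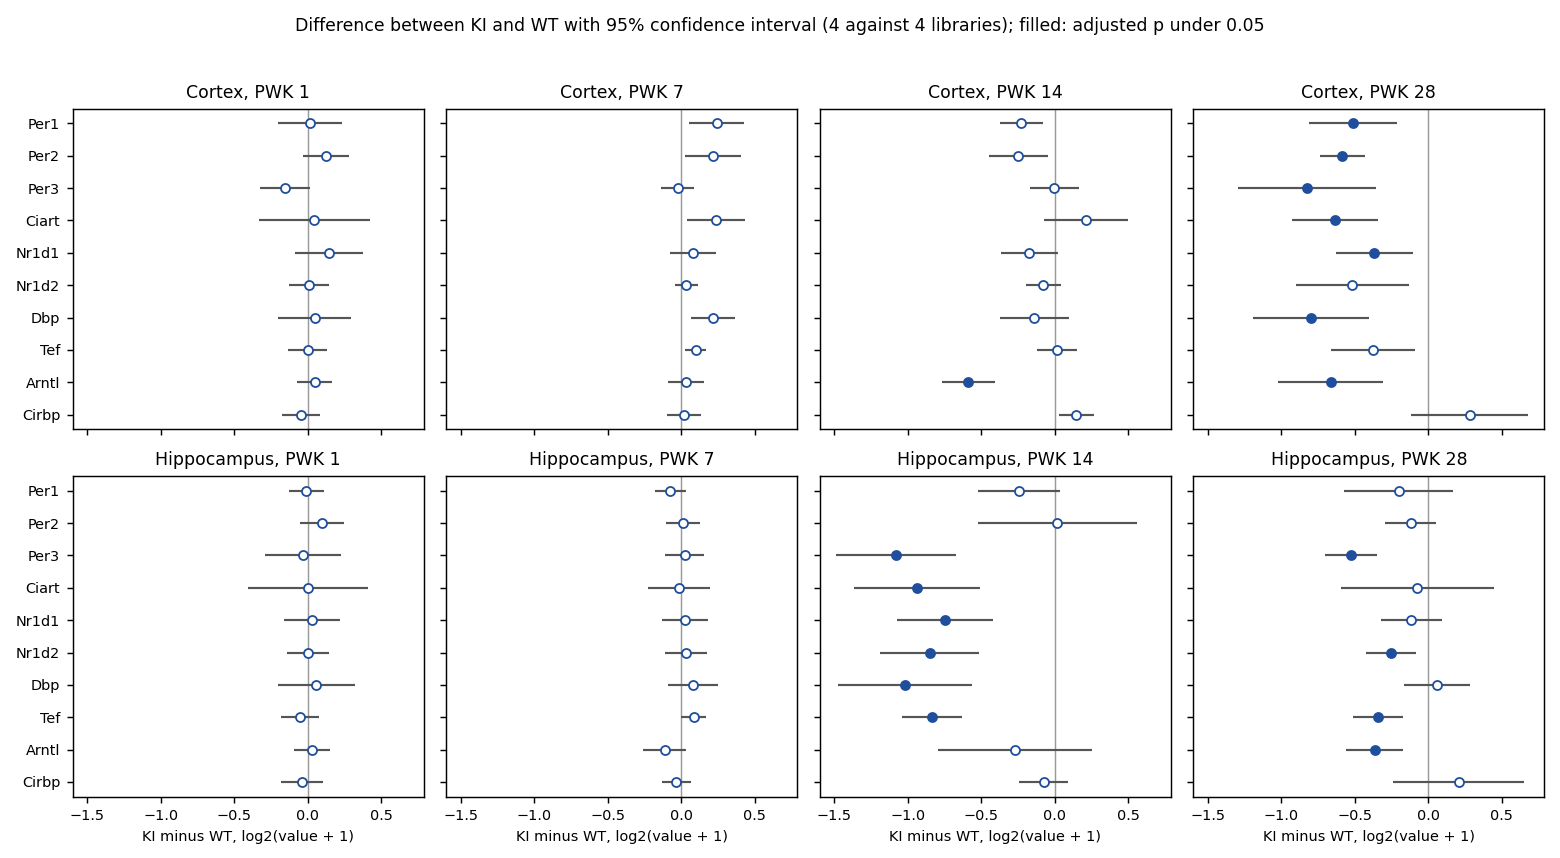
Log2 difference between KI and WT (x axis) with its 95% confidence interval for each gene (y axis), in 8 panels by region and age, 4 against 4 libraries each. Filled points have an adjusted p under 0.05. Filled points appear at PWK 14 and PWK 28 and lie below 0, 6 of them in hippocampus at PWK 14 and 7 in cortex at PWK 28.

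At PWK 28 the interaction of genotype with region was called for 2 of the 10 genes, where 4.57% of all genes were called, and here the cortex was the lower region. The difference of differences was 0.46 ± 0.11 for Per2 (adjusted p = 0.0202) and 0.86 ± 0.23 for Dbp (adjusted p = 0.0375). With the 2 regions of a mouse kept together as a replicate block only Per2 was called (1 of 10), and Dbp had an adjusted p of 0.0515. The count was also 1 in the common fit of 64 libraries and in 12 of the 16 fits without 1 library. No gene of the 10 was called for this term at PWK 1, where 0% of all genes were, or at PWK 7, where 0.00543% were. At an unadjusted p under 0.05 the counts were 0 (3.63% of all genes) and 1 (5.81%). The change from PWK 14 to PWK 28 was tested in the same way and was called for 0 of the 10 genes in either region. None of the 18398 genes in cortex or the 18411 in hippocampus was called there by limma, whereas 15.1% and 12.4% had an unadjusted p under 0.05, as did 6 of the 10 genes in each region. The smallest adjusted p-values were 0.0871 for Ciart in cortex, at -0.84 ± 0.19, and 0.131 for Dbp in hippocampus, at 1.08 ± 0.25. That the calls moved from hippocampus at PWK 14 to cortex at PWK 28 was thus not shown by a test of the ages against each other. With all 64 libraries in a common fit, 3 of the 10 were called in cortex and 4 in hippocampus, and without KI cortex mouse 2 of PWK 28, 4 in cortex. The share of all genes called in these fits is not given here.

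Cirbp was not called between KI and WT, yet its KI mice of PWK 28 lay far apart. Its mean at PWK 28 was 1838 ± 557 in KI cortex and 1461 ± 96.4 in WT cortex, a log2 difference of 0.28 that did not pass (adjusted p = 0.295), and 1654 ± 591 against 1366 ± 100.5 in hippocampus (0.21, adjusted p = 0.545). KI mice 1 to 4 read 2289, 1264, 2342 and 1457 in cortex and 2222, 1094, 2102 and 1196 in hippocampus. WT mice read 1479.7, 1359, 1585 and 1419 in cortex and 1404, 1272, 1490.2 and 1298 in hippocampus. Thus KI mice 1 and 3 lay above every WT mouse in both regions, while KI mouse 2 lay below every WT mouse in both and KI mouse 4 did so in hippocampus. The difference in cortex gained a call without KI mouse 2 of PWK 28, in the fit in which all 10 genes were called and Cirbp alone was higher. It gained one in no other of the 15 alternatives. In cortex at PWK 7, a separate set of mice, KI lay within 1869 to 1895 and WT within 1682 to 1988. In cortex at PWK 1, WT mice lay within 1622 to 1656 and KI mice within 1411 to 1703.

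Within KI at PWK 28, some other genes that respond to the state of the animal also set mice 1 and 3 apart from mice 2 and 4. Against WT they did not all lie as Cirbp did. In hippocampus Rbm3 of KI mouse 4 lay above every WT mouse, and in cortex Per1 of every KI mouse lay below every WT mouse. Rbm3, which codes for the other well-known cold-inducible RNA-binding protein, read 4029, 2384, 3969.8 and 3106 in KI cortex and 4328, 2119, 4304 and 3055 in KI hippocampus, against 2858 to 3172 and 2591 to 2771 in WT. Hspa1b, which codes for the inducible heat shock protein HSP70, went the other way, at 379, 710.4, 476 and 780.0 in KI cortex and 411, 781, 532 and 1019 in KI hippocampus, against 366 to 470.2 and 453 to 648 in WT. The summed level of 12 immediate early genes, which neurons switch on when they fire, was 56320, 8872, 36900.1 and 4996 in KI cortex and 31763 to 35832 in WT cortex. In hippocampus it was 39075, 6632, 21174 and 5028 in KI and 17271 to 21151 in WT. Per1 was 3210.03, 1664, 2816 and 1916 in KI hippocampus and 2544 to 2757 in WT. In hippocampus, though not in cortex, Ciart split likewise, with KI mice 1 and 3 above and KI mice 2 and 4 below every WT mouse. Mice 1 and 3 were therefore the higher KI mice for Cirbp, Rbm3, Per1 and the immediate early genes and the lower for Hspa1b, in both regions. Rbm3 and Hspa1b were the extremes of the 13 cold- and heat-responsive genes, with r of 0.75 and -0.51 with Cirbp over all libraries. The median of that list was -0.29, and Hsp90aa1, Hspd1 and Hsf1 lay between -0.09 and 0.07. The part that these genes had in the values of Per1 and Cirbp was not tested.

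**Figure D3:**
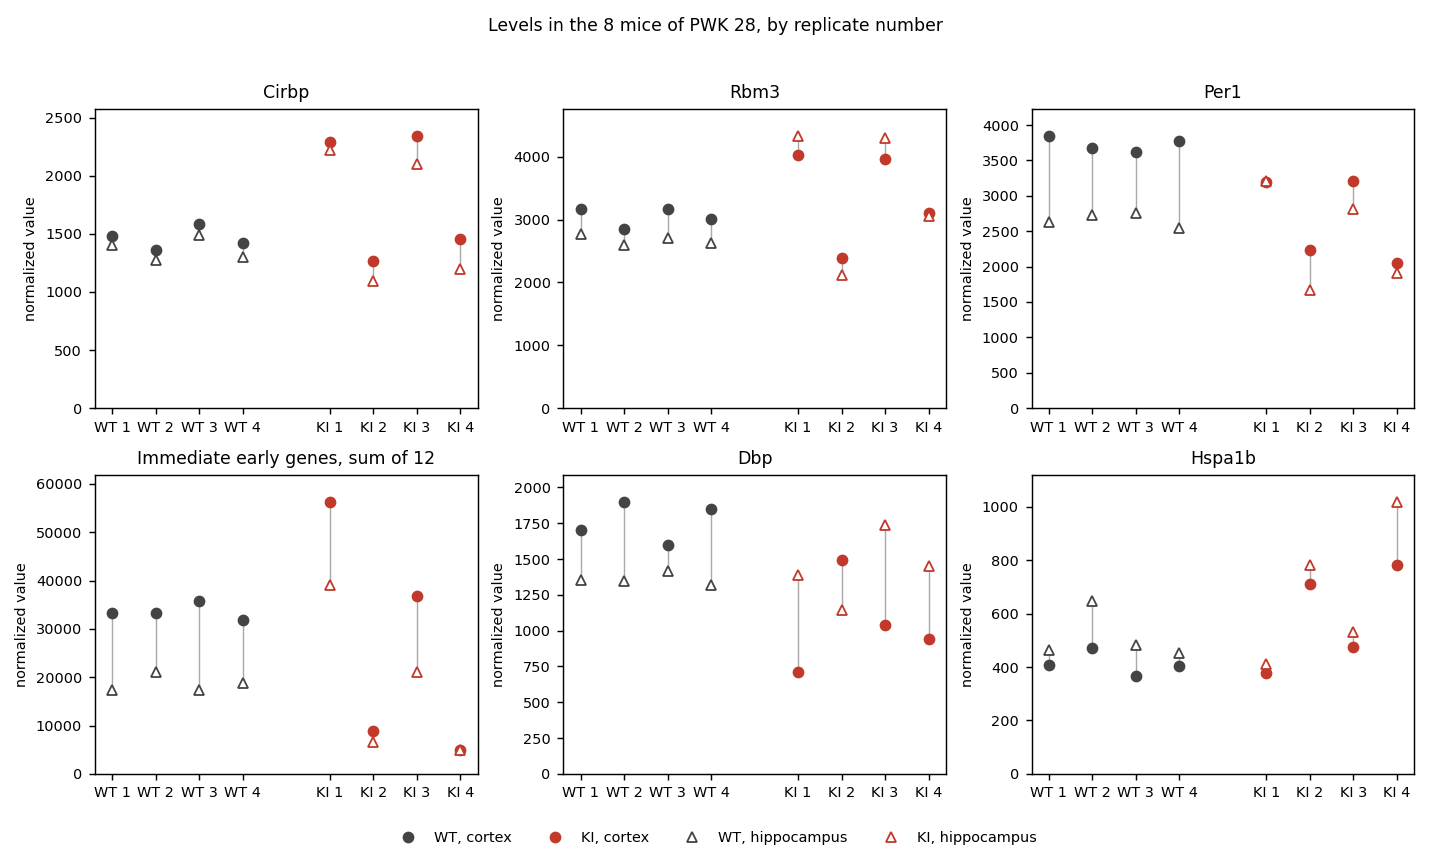
Normalized value (y axis, from 0) of Cirbp, Rbm3, Per1, the sum of 12 immediate early genes, Dbp and Hspa1b in the 8 mice of PWK 28 (x axis, genotype and replicate number). Filled circles are cortex, open triangles hippocampus, and a grey line joins the 2 regions of a mouse. In Cirbp, Rbm3, Per1 and the immediate early genes KI mice 1 and 3 stand above KI mice 2 and 4 in both regions, which is not so for Dbp.

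How far the 2 regions of a mouse moved together was measured by the deviation of each library from the mean of its group of 4, on the log2 scale, over the 32 mice. Cirbp had a Pearson r of 0.93 and a Spearman rho of 0.66, and 99.961% of the 12819 genes with a mean of at least 100 had a lower r. The median r over those genes was 0.168, with 5% below -0.228 and 5% above 0.555. Most of the value for Cirbp came from PWK 28, where r was 0.99 over 8 mice, and without that age r was 0.48. Without the 2 mice farthest from the median in cortex r was 0.87, and in the 16 WT mice alone it was 0.60. The same mouse had the lowest Cirbp of its group in both regions in 5 of 8 groups, and the highest in 3 of 8.

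Per1 followed, with an r of 0.63 (rho 0.42), which 97.7% of genes did not reach. It was 0.30 without PWK 28 and 0.29 in WT mice. Arntl had 0.46 over all mice, 0.52 in KI mice and -0.15 in WT mice. In KI cortex and KI hippocampus alike, mouse 1 had the lowest Arntl at PWK 14 (650.4 and 415) and mouse 3 at PWK 28 (460.1 and 563). Tef had 0.43 and, of the output genes, the highest r among WT mice, 0.54. Ciart had 0.35, Per3 0.23, Nr1d2 0.18 and Nr1d1 0.01, all within the middle of the distribution over genes. Dbp had -0.02 and Per2 -0.14, and Per2 had 0.44 without PWK 14, the age of the single high hippocampal library. The mouse with the lowest value in KI hippocampus was thus not always the lowest in cortex. For Dbp at PWK 14, KI mouse 1 was the lowest in cortex (1527) while mouse 2 was in hippocampus (528). At PWK 28, KI mouse 1 was the lowest of its group in cortex (714). KI mouse 2, the highest of that group there, was the lowest in hippocampus (1147). All these are descriptions, since the agreement was part of the choice of genes and a few mice carry much of it.

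**Figure D4:**
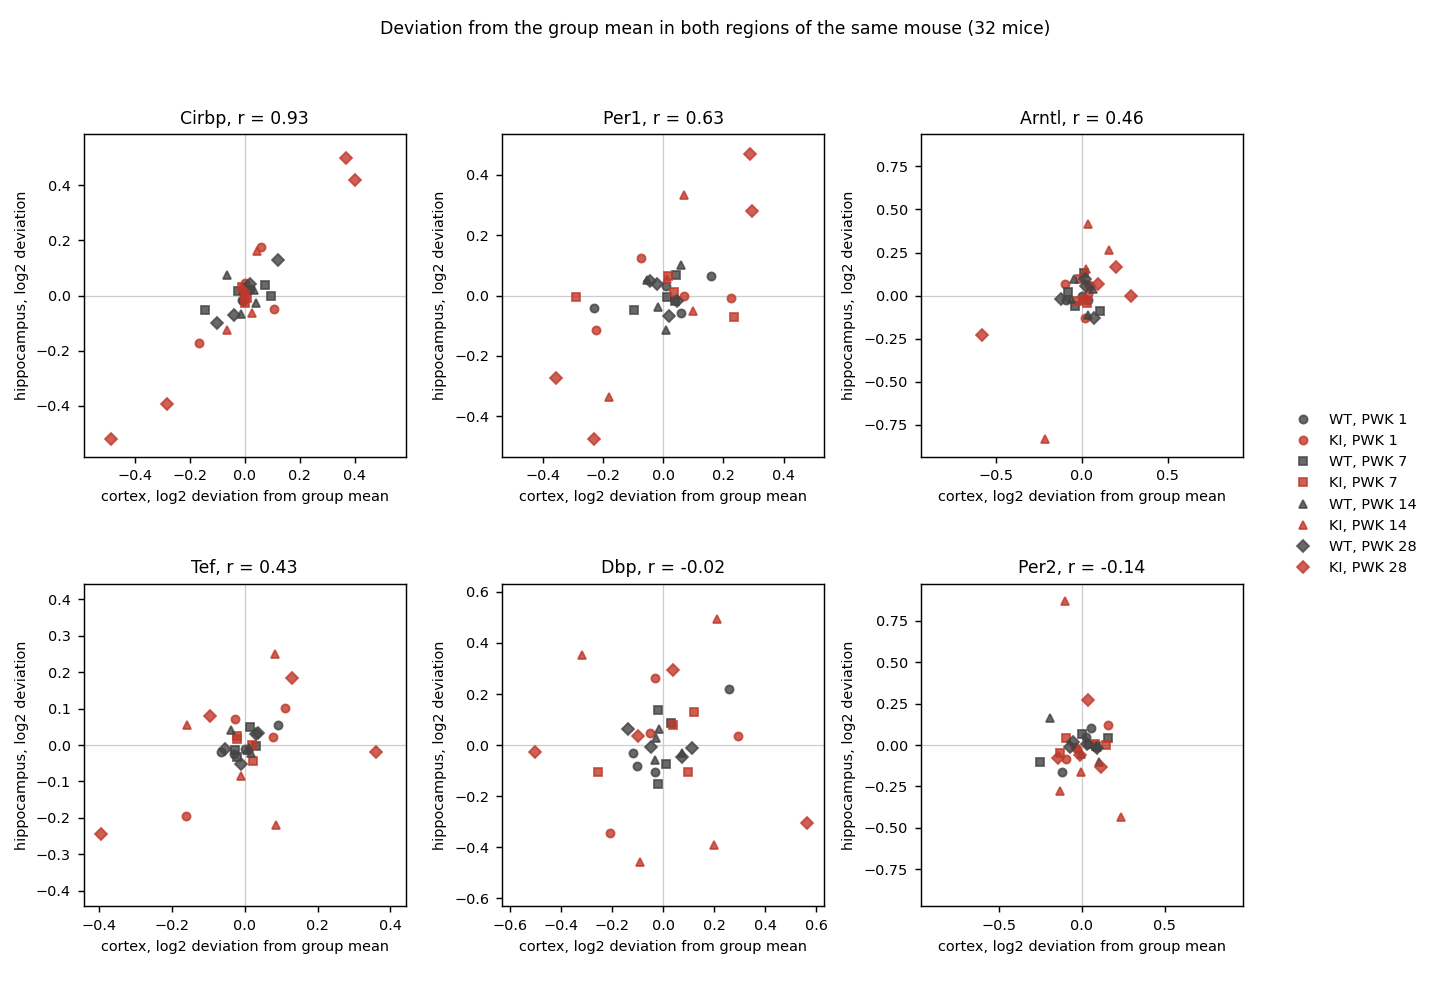
Deviation of each mouse from the mean of its group of 4, on the log2(value + 1) scale, in cortex (x axis) and hippocampus (y axis) for Cirbp, Per1, Arntl, Tef, Dbp and Per2. Each of the 32 points in a panel is a mouse, with colour for genotype and shape for age. The KI mice of PWK 28 (red diamonds) lie at both ends of the diagonal for Cirbp and Per1, while Dbp shows no diagonal (r = -0.02).

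Among themselves Per3, Dbp, Tef, Nr1d1 and Nr1d2 had the closest deviations. Over all 64 libraries their 10 pairs had the highest r of the 45 pairs, from 0.64 for Tef and Nr1d1 to 0.85 for Per3 and Dbp. Ciart correlated with these 5 at between 0.15, for Tef, and 0.53, for Nr1d1. Per1 correlated with Cirbp at 0.58, at 0.65 in KI libraries and at -0.18 in WT libraries. Arntl correlated with Dbp at -0.28, with Nr1d1 at -0.22 and with Nr1d2 at -0.24. In hippocampus alone these were -0.52, -0.49 and -0.52, but in cortex alone they were 0.08, 0.17 and 0.11. The median over the 28 pairs that leave out Arntl and Cirbp was 0.34. It was 0.40 in the 32 KI libraries and 0.05 in the 32 WT libraries. In WT libraries Dbp and Tef still correlated at 0.74 and Per3 and Dbp at 0.62, but Tef and Nr1d2 only at 0.11. Nr1d1 correlated there with Per3, Dbp, Tef and Nr1d2 at between -0.13 and 0.04. The spread within WT groups was small, so its correlations rest on small deviations. Libraries share their scaling, and the same mouse gives 2 of them, so these are descriptions too.

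**Figure D5:**
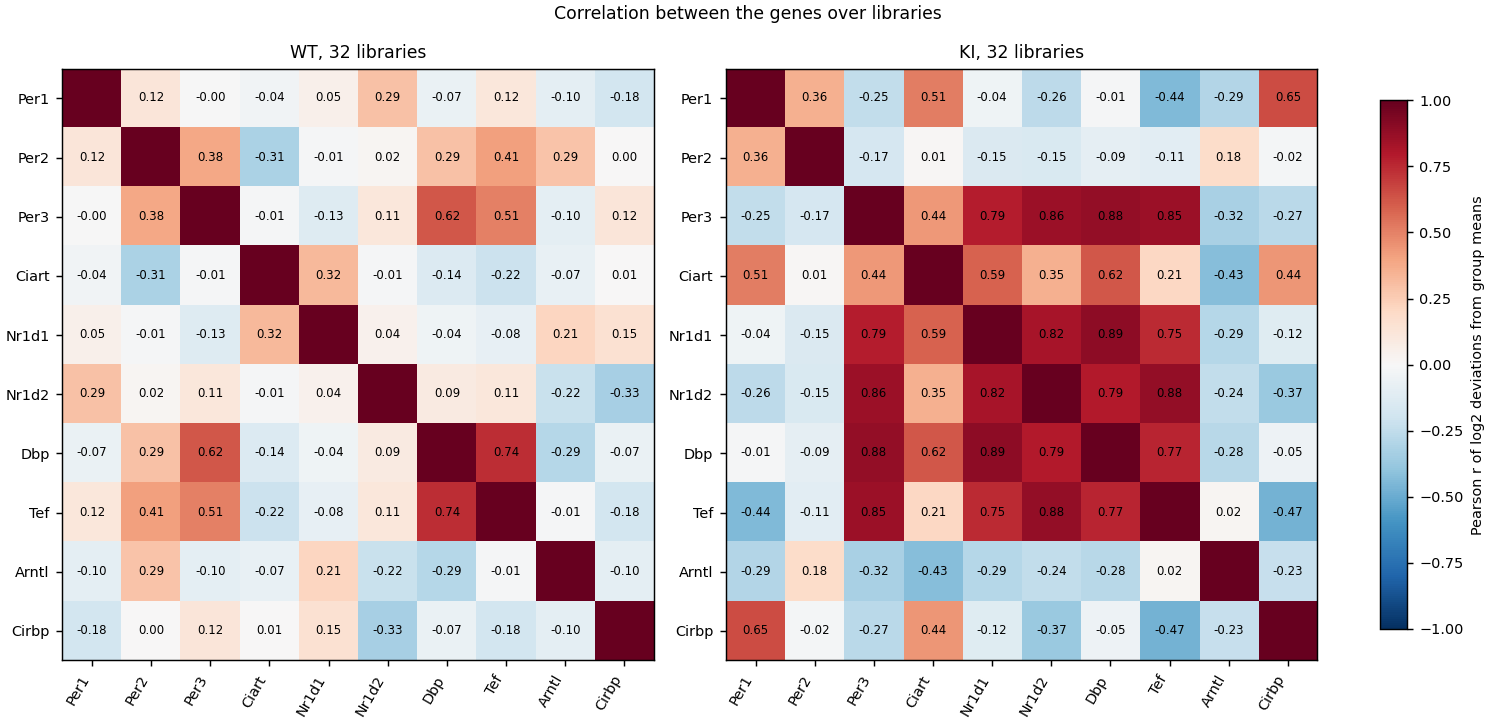
Pearson r between each pair of the 10 genes (both axes) of the log2 deviations from the group means, in the 32 WT libraries and the 32 KI libraries. Colour runs from -1 (blue) to 1 (red). Per3, Nr1d1, Nr1d2, Dbp and Tef form a red block in KI. In WT, of these, only the pairs among Per3, Dbp and Tef stay clearly red (r of 0.51 to 0.74). Nr1d1 lies between -0.13 and 0.04 with the rest of the block, and Nr1d2 between 0.04 and 0.11.

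The genes outside the list whose deviations were most like the mean of Per1, Per2, Per3, Dbp, Tef, Nr1d1, Nr1d2 and Ciart over the 64 libraries were Sytl2 (r = 0.64), Dpp4 (0.62), Rassf3 (0.62), Fxyd7 (0.61), Spout1 (0.59), Mpc1 (0.59), Boc (0.58) and Ctdspl (0.58). The most opposite were Ssbp3 (-0.66), Ncs1 (-0.65), March4 (-0.64) and Ncam1 (-0.63). The middle 90% of the 12819 genes lay between -0.332 and 0.324. In WT libraries alone the r of these 12 genes was between -0.30 and 0.40. The gene most like Cirbp was Rbm3 (r = 0.75, and 0.31 in WT libraries), a likeness that was looked at after the values were seen.

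Of 18 further clock genes none was called at PWK 1 or PWK 7. In cortex, 1 was lower at PWK 14, where 5.18% of all genes were called, and 6 were lower at PWK 28, where 22.2% were. In hippocampus, 1 was higher and 2 lower at PWK 14, where 15.6% of all genes were called, and 2 were higher and 3 lower at PWK 28, where 15.8% were. The counts at PWK 14 were thus near the share over all genes. Their median log2 difference was -0.17 in cortex at PWK 28, against -0.55 for the 10 genes and -0.00 for all genes, and -0.10 in hippocampus at PWK 14, against -0.79 and 0.01. Hlf, the closest relative of Dbp and Tef, fell by 1.48 ± 0.25 in KI hippocampus at PWK 14 (adjusted p = 0.00534) and by 1.15 ± 0.25 in KI cortex at PWK 28 (adjusted p = 0.00941). Bhlhe40, a repressor that activity also induces, fell in cortex at PWK 28, to 2159.9 ± 242 in KI from 4899 ± 211 in WT (adjusted p = 4.33e-05), and in hippocampus by 0.34 ± 0.06 (adjusted p = 0.00261). Npas2, which can stand in for CLOCK, fell at PWK 28 by 0.60 ± 0.09 in cortex (adjusted p = 0.00179) and by 0.47 ± 0.11 in hippocampus (adjusted p = 0.0129). Bhlhe41, the relative of Bhlhe40, was higher in KI hippocampus at PWK 14, by 0.81 ± 0.09 (adjusted p = 0.00103), and at PWK 28, by 0.51 ± 0.11 (adjusted p = 0.00928). The repressor Cry2 fell by 0.27 ± 0.06 in cortex at PWK 14 (adjusted p = 0.0239), and Csnk1e, a kinase of the PER proteins, by 0.33 ± 0.07 in hippocampus at PWK 14 (adjusted p = 0.0129).

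Of 16 clock-controlled genes, 2 were higher and 0 lower in cortex at PWK 14, 1 higher and 3 lower in cortex at PWK 28, 2 and 2 in hippocampus at PWK 14, and 1 and 1 in hippocampus at PWK 28. In cortex at PWK 28 that is near the 22.2% called over all genes, and in hippocampus at PWK 28 it is below the 15.8%. At PWK 14, 5.18% of all genes were called in cortex and 15.6% in hippocampus. The transcription factor Klf10 rose in KI at PWK 14, by 0.59 ± 0.07 in cortex (adjusted p = 0.00283) and by 1.65 ± 0.23 in hippocampus (adjusted p = 0.00256). Hif3a rose in cortex at PWK 14 by 0.72 ± 0.17 (adjusted p = 0.0381) and Coq10b in hippocampus at PWK 14 by 0.67 ± 0.12 (adjusted p = 0.00778). Klf15 fell in cortex at PWK 28 by 0.53 ± 0.11 (adjusted p = 0.00688) and in hippocampus at PWK 14 by 0.51 ± 0.13 (adjusted p = 0.0275). Pdk4 fell in cortex at PWK 28 by 0.65 ± 0.13 (adjusted p = 0.00674), and Usp2 rose in hippocampus at PWK 28 by 0.26 ± 0.08 (adjusted p = 0.0379). Tsc22d3, which glucocorticoids induce and which the next list also holds, fell at PWK 28 by 0.68 ± 0.07 in cortex (adjusted p = 0.00024) and by 0.57 ± 0.07 in hippocampus (adjusted p = 0.000556).

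Of 13 glucocorticoid-responsive genes, 2 were higher and 1 lower in cortex at PWK 14, and 6 were lower there at PWK 28. In hippocampus 5 were higher and 1 lower at PWK 14, and 1 was higher and 2 lower at PWK 28. Over all genes 5.18% and 22.2% were called in cortex at these ages, and 15.6% and 15.8% in hippocampus. The count in hippocampus at PWK 28 is near that share. Cdkn1a, which codes for the cell cycle inhibitor p21, rose by 0.95 ± 0.16 in cortex at PWK 14 (adjusted p = 0.0107), by 2.40 ± 0.16 in hippocampus at PWK 14 (adjusted p = 0.000129) and by 0.82 ± 0.18 in hippocampus at PWK 28 (adjusted p = 0.0102). Fkbp5, a co-chaperone of the glucocorticoid receptor, rose at PWK 14 by 0.52 ± 0.11 in cortex (adjusted p = 0.0266) and by 0.38 ± 0.06 in hippocampus (adjusted p = 0.00411). Nr3c1, the gene of that receptor, fell at PWK 14 by 0.35 ± 0.07 in cortex (adjusted p = 0.023) and by 0.37 ± 0.08 in hippocampus (adjusted p = 0.0164). Ddit4 and Gjb6 fell in cortex at PWK 28, by 0.55 ± 0.11 and 0.42 ± 0.08 (adjusted p = 0.00557 and 0.00559), and Zbtb16 in hippocampus at PWK 28 by 0.48 ± 0.13 (adjusted p = 0.0304).

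Of 13 cold- and heat-responsive genes, 1 was lower in cortex at PWK 14, 3 were lower in cortex at PWK 28, 2 were higher and 2 lower in hippocampus at PWK 14, and 4 were lower in hippocampus at PWK 28. The count in cortex at PWK 28 is near the 22.2% called over all genes, and Rbm3 was in none of these counts. Over all genes 5.18% were called in cortex at PWK 14, and 15.6% and 15.8% in hippocampus at PWK 14 and PWK 28. Dnajb1, a co-chaperone of HSP70, fell by 0.49 ± 0.10 in cortex at PWK 14 (adjusted p = 0.0191), by 0.57 ± 0.11 in cortex at PWK 28 (adjusted p = 0.00485) and by 0.36 ± 0.06 in hippocampus at PWK 14 (adjusted p = 0.00732). The heat shock genes Hsph1 and Hspb1 rose in hippocampus at PWK 14, by 0.47 ± 0.11 and 1.84 ± 0.48 (adjusted p = 0.0179 and 0.0302). Hsf1, the gene of the main heat shock factor, fell at PWK 28 by 0.32 ± 0.06 in cortex and 0.34 ± 0.08 in hippocampus (adjusted p = 0.00598 and 0.0127), and Chordc1 by 0.27 ± 0.07 and 0.33 ± 0.08 (adjusted p = 0.0241 in both). Hspa8 fell in hippocampus at PWK 28 by 0.17 ± 0.05 (adjusted p = 0.0386). Of 12 immediate early genes, 1 was called in cortex at PWK 14 and at PWK 28, Nr4a3, with log2 differences of -1.39 ± 0.22 and -1.75 ± 0.34 (adjusted p = 0.00627 and 0.005), and none in hippocampus. None of these lists had a called gene at PWK 1 or PWK 7.

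The deviations of the immediate early genes were closer to those of Per1 and Cirbp than to those of the output genes. The median r of the 12 genes over 64 libraries was 0.67 with Per1, 0.53 with Cirbp and 0.05 with the mean of the 8 genes named above. In WT libraries the median was -0.02 with Per1 and -0.05 with Cirbp. Their own agreement between the regions of a mouse was high, with a median r of 0.86 and a highest value of 0.97 for Npas4. At PWK 14, KI mouse 1 had the highest sum of immediate early genes in both regions, 57317 in cortex and 35465 in hippocampus. WT mice ranged from 17109 to 24953 and from 10114 to 17231. The same KI mouse had the lowest Cirbp of its group in both regions (1534 and 1195). Its Per1 (2584 and 1866) lay within the range of the other KI mice.

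Markers of other cell types moved in the same comparisons. In KI hippocampus at PWK 14, where 15.6% of all genes were called, 3 of 6 astrocyte markers were higher and their summed level was 191925 to 290440 in KI and 117400 to 141798 in WT. Gfap, the astrocyte filament gene, was 131431, 40059, 45880 and 47169 in KI mice 1 to 4 and 7502 to 9231 in WT, so mouse 1 stood apart. Of the neuronal markers in KI hippocampus at PWK 14, Gad2 was called higher and Syt1 lower, with log2 differences of 0.49 and -0.37. At PWK 28, 4 of 6 astrocyte markers and 4 of 6 microglial markers were higher in KI hippocampus, where 15.8% of all genes were called. The neuronal markers Slc17a7, Gad2 and Gad1 were also called higher there, by 0.40, 0.51 and 0.25. So were Mobp of the oligodendrocytes (0.32) and Slco1a4 of the endothelial cells (0.53). In cortex at PWK 14, where 5.18% of all genes were called, 2 of 6 astrocyte and 2 of 6 neuronal markers were higher and 3 of 5 endothelial markers lower. In cortex at PWK 28, where 22.2% of all genes were called, 1 of 6 astrocyte markers was higher and 1 lower, and the summed level of 6 neuronal markers was 227371 to 247692 in KI and 181672 to 205964 in WT. Their part in the lower clock genes was not tested.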

How the data were processed

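RNA from the cortex and hippocampus of WT and KI mice was sequenced as stranded mRNA libraries. Per the labels, the authors quantified reads on GRCm38 with Salmon 0.11.2 and normalized gene counts with DESeq2 1.19.11 in R 3.6.0, and the deposited values are this normalized signal, whose whole-read depth is not given. The study's methods name a total RNA kit and other versions. The 10 genes and all gene lists were chosen with earlier results of these data known.

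Symbols were assigned from GENCODE M21 (18420 of 18432 IDs). Each comparison was fitted over all genes with a mean of at least 1 in its libraries, on log2(value + 1), with limma 3.58.1 in R 4.3.3 (trended variance, two-sided), and p-values were adjusted over all genes by Benjamini-Hochberg. Log2 differences carry SE and group means SD. Replicates are mice, by the labels and methods. The numbers pair the regions of a mouse, since both regions of each mouse were dissected, although no label states it for each number. They pair no mice across genotypes or ages, and no main fit held a term for the mouse. On simulated data for KI against WT in cortex at PWK 28, 71% of genes changed by 0.5 and 90% of genes changed by 1 (log2) were recovered among 18373. The simulation gave both genotypes the spread of the WT mice and changed only genes with a WT mean of at least 100. The real KI mice spread more widely for several of the 10 genes, such as Per3 (log2 SD 0.55 against 0.07 in WT). These shares can therefore overstate the recovery in the real comparison. The genes named outside the 10 were, for each list of clock and response genes and each comparison of genotypes, up to 3 called genes with the smallest adjusted p-values, and the 8 most and 4 least like the output genes. Cell markers are given as counts, with Gfap named and, in hippocampus, called markers of neurons, oligodendrocytes and endothelial cells. Genes added after their values were seen are Rbm3, Hspa1b and the summed immediate early genes of single mice. Alternatives were a pseudocount of 10, no filter, a mean of at least 100, total-sum scaling, library weights, a common fit of 64 libraries, a replicate block and leaving out each library. The block is the mouse where regions are compared, but it joins unrelated mice where genotypes or ages are compared.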

Additional observations from a re-analysis of the deposited data

Results flagged for a closer look

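Of 160 groups of 4 libraries, 10 held a value far from the other 3 by Dixon's test, 5 in KI and 5 in WT, where chance gives about 1 in 20 groups. The widest gap in size was Per2 in KI hippocampus at PWK 14, where mouse 3 read 3204 and the others 1301 to 1569. The same gene stood out in KI hippocampus at PWK 28, where mouse 3, another animal, read 1787 and the others 1352 to 1419, and in WT cortex at PWK 1, where mouse 4 read 573 and the others 633 to 645. Nr1d2 read 3564 in KI hippocampus of mouse 2 at PWK 7, against 4153 to 4193. Arntl read 975 in KI cortex of mouse 3 at PWK 1, against 1055 to 1071, and 839 in KI hippocampus of mouse 3 at PWK 7, against 761 to 772. In WT mice the flagged values were Dbp at 2205 in cortex of mouse 1 at PWK 14, Tef at 13895 in cortex of mouse 4 at PWK 14 and at 5833 in hippocampus of mouse 1 at PWK 1, and Cirbp at 1656 in cortex of mouse 3 at PWK 1, all close to the rest of their groups on the log2 scale. The KI mice of PWK 28 that split into 2 high and 2 low values for Cirbp met no such rule, because the rule looks for a single value.

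The effect of the knock-in differed between regions by an interaction term of limma for 6 genes. At PWK 14 the difference of differences, hippocampus minus cortex on the log2 scale, was -1.08 for Per3, -0.85 for Tef, -0.77 for Nr1d2 and -1.15 for Ciart. At PWK 28 it was 0.46 for Per2 and 0.86 for Dbp. With the 2 regions of a mouse kept together as a replicate block, Dbp lost its call (adjusted p = 0.0515).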

How the results depend on the processing

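No difference between groups changed sign past its threshold in any alternative, and of the single-gene results 3921 kept their side of the threshold, 48 gained a call and 111 lost one. The 6 calls in hippocampus at PWK 14 were made in all 15 alternatives. Other counts of the 10 genes moved, and the share of all genes called in each alternative is not given here. With library weights the count was 2 in cortex at PWK 14 and 4 for genotype by age in cortex. With all 64 libraries in a common fit it was 1 for genotype by region at PWK 28, 3 and 4 for genotype by age in cortex and hippocampus, 2 for region at PWK 1, 4 and 2 for PWK 14 against PWK 7 in cortex and hippocampus, and 0 for PWK 28 against PWK 14 in both. With a replicate block it was 1 for genotype by region at PWK 28 and 1 for PWK 28 against PWK 14 in each region, and no other count moved by over 1.5 times. Across ages that block joins unrelated mice. Leaving out 1 library at a time gave 1 to 2 calls for KI against WT in cortex at PWK 14, 4 to 10 there at PWK 28 and 2 to 4 in hippocampus at PWK 28. It gave 4 to 7 for genotype by region at PWK 14 and 1 to 2 at PWK 28. For genotype by age it gave 0 to 4 in cortex and 0 to 2 in hippocampus, and for PWK 28 against PWK 14 in WT mice 2 to 4 and 1 to 3. In WT mice alone the agreement between regions turned negative for Arntl (-0.15), Nr1d2 (-0.062) and Ciart (-0.062). It turned positive there for Dbp (0.42) and Per2 (0.11). In cortex alone the correlation of many pairs changed sign. Among them were Per2 with Nr1d2 (-0.13 over all libraries, 0.34 in cortex), Nr1d1 with Arntl (-0.22 and 0.17) and Ciart with Cirbp (0.38 and -0.0056). The causes were not tested. With 4 mice a group, a difference of 0.5 on the log2 scale is missed for some genes, and whole reads behind the values are unknown.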
